A study of Homo sapiens with 6 samples.

Results

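The kinase module of Mediator is encoded in human cells by 7 genes: CDK19 and CDK8 for the kinase, CCNC for its cyclin, MED12 or MED12L, and MED13 or MED13L. These 7 genes, taken from 58219 gene identifiers in the deposited tables, were followed in RNA sequencing libraries of U2OS cells, a human osteosarcoma line. A first group of 3 libraries came from cells that received a short hairpin RNA (shRNA) against E4F1, a zinc finger transcription factor. The control group was 3 libraries from cells that received a scramble shRNA. In both groups cells were infected for 24 h, kept in puromycin for 48 h and harvested at 72 h. The labels describe independent pools of a single cell line. They do not give the hairpin sequences or the number of hairpins per gene, and p-values measure only the spread between pools, which may be technical. The 7 genes are the members of the module and their paralogues, chosen by membership with the CDK19 and CDK8 differences in CPM between these groups already known, so their values, and the calls that the fit over all genes gives them, are a description and support nothing.

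Mediator is a large complex that links transcription factors at enhancers to RNA polymerase II at promoters. The kinase module binds it reversibly through MED13 or MED13L, and its presence is not compatible with polymerase binding. MED12 or MED12L activates the kinase through cyclin C, and CDK8 and CDK19 are closely related alternatives that do not share a module. The module is known both to restrain transcription and to favour elongation at inducible genes, including those of serum, Wnt, Notch and interferon signalling.

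In E4F1 shRNA cells the CDK19 transcript was higher and the CDK8 transcript lower, while the log2 fold changes of the cyclin gene and the 4 MED subunit genes ran from 0.02 to 0.35. CDK19 stood at 2.60 times its control level. CDK8 stood 1.36-fold below its control level. Per kilobase of exon, the summed reads of both kinases were 12.6 in E4F1 shRNA cells and 12.3 CPM in control cells, with overlapping libraries.

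A gene is called here when its edgeR p, adjusted over all 15765 genes tested, is under 0.05. Of the 7 genes 3 were called, where 28.9% of all genes were. CDK19 and MED12L were called higher in E4F1 shRNA cells, as were 14.4% of all genes, and CDK8 was called lower, as were 14.4% of all genes. The groups did not overlap in 5 of the 7, against 41.8% of all genes. They lay wholly higher in E4F1 shRNA cells for 4 (20.7% of all genes) and wholly lower for CDK8 (21.1% of all genes). The choice of genes used this contrast, so nothing is read from these counts.

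Reads in genes numbered 14947085 to 16892139 per library. E4F1 itself averaged 2.95 ± 0.384 CPM (reads scaled to library size by the TMM method; SD, n = 3) in E4F1 shRNA cells and 17.5 ± 1.76 CPM (SD, n = 3) in control cells. On the first principal component of log2 CPM, which held 53.9% of the variance, the E4F1 shRNA libraries lay between 17.5 and 22.7, and control library 2 lay at −9.85, nearer to them than control libraries 1 and 3 at −20.9 and −31.1. Of 9 osteoblast lineage markers TWIST1 was listed at 0 in every library. The other 8 markers were measurable, though COL1A2 averaged only 0.677 CPM in E4F1 shRNA cells and 0.771 CPM in control cells. Their summed level was 2459 to 2579 CPM in E4F1 shRNA libraries and 2720 to 2804 CPM in control libraries, with no overlap, and nearly all of it was COL1A1 (1085 ± 41.2 CPM in E4F1 shRNA cells and 1209 ± 64.3 CPM in control cells) and SPARC (1188 ± 14.9 CPM in E4F1 shRNA cells and 1267 ± 19.3 CPM in control cells; SD, n = 3 each). The summed levels were 20.6 to 24.2 CPM in E4F1 shRNA libraries and 23.9 to 28.1 CPM in control libraries for 5 epithelial markers. These went both ways: EPCAM was called higher (log2 0.43), and CDH1 (−0.41) and CLDN4 (−0.49) were called lower, the CDH1 call being lost in 8 of 14 alternatives. For 5 blood markers they were 1.49 to 2.99 CPM in E4F1 shRNA and 2.14 to 2.44 CPM in control libraries, with CD3E listed at 0. For 5 endothelial markers they were 3.63 to 3.81 CPM in E4F1 shRNA and 3.60 to 4.22 CPM in control libraries, and the part of other cells in the results was not tested.

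CDK19, the paralogue of CDK8 found in vertebrates (chromosome 6, 110609978 to 110815958, minus strand), had 35.4, 36.0 and 38.9 CPM in the 3 E4F1 shRNA libraries, against 15.6, 14.8 and 12.1 CPM in the 3 control libraries. Every E4F1 shRNA library lay above every control library. The corresponding read counts were 568, 605 and 638 in E4F1 shRNA libraries and 233, 240 and 188 in control libraries. The means were 36.8 ± 1.88 CPM in E4F1 shRNA cells and 14.2 ± 1.85 CPM in control cells (SD, n = 3 each), with a log2 fold change of 1.38 (SE 0.09). Without control library 2 the log2 fold change was 1.42. Among all 15765 genes tested, CDK19 had the 28th highest log2 fold change. In bulk RNA, a change in the number of cells with a transcript and a change in its level per cell cannot be told apart.

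CDK8, the kinase after which the module is often named (chromosome 13, 26254104 to 26405238, plus strand), had 27.6, 26.1 and 27.8 CPM in E4F1 shRNA libraries, against 39.3, 33.4 and 37.9 CPM in control libraries. The groups did not overlap, and control library 2 was the lowest control. The means were 27.2 ± 0.926 CPM in E4F1 shRNA cells and 36.9 ± 3.10 CPM in control cells (SD, n = 3 each). The log2 fold change was −0.44 (SE 0.08). The value was −0.50 without control library 2.

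**Figure D1:**
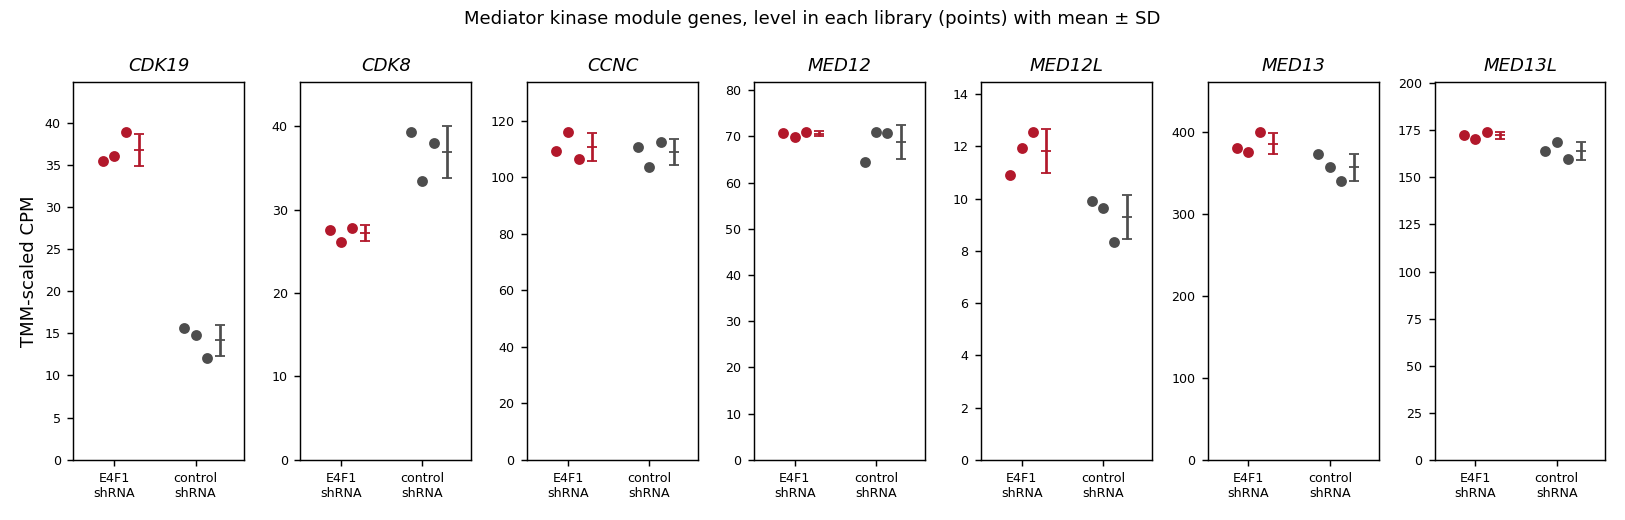
TMM-scaled CPM of the 7 kinase module genes in each library (points; E4F1 shRNA in red, control shRNA in grey), with mean and SD of 3 libraries beside them; every panel has its own axis from 0. CDK19 sits at 35.4 to 38.9 CPM in E4F1 shRNA and 12.1 to 15.6 CPM in control libraries, CDK8 moves the other way, and the points of CCNC and MED12 overlap between groups.

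Levels of different genes were compared per kilobase, taking the union of each gene's annotated exons as its length. On this scale CDK19 made up 37.8%, 39.4% and 39.8% of the reads of both kinases in the E4F1 shRNA libraries, against 15.8%, 17.3% and 13.1% in the control libraries. The share averaged 39.0% ± 1.08 in E4F1 shRNA cells and 15.4% ± 2.16 in control cells (SD, n = 3 each). CDK8 was therefore the more abundant kinase transcript in all 6 libraries, by a smaller margin after E4F1 shRNA. The sum of CDK19 and CDK8 was 12.6 ± 0.442 CPM per kilobase in E4F1 shRNA cells and 12.3 ± 0.889 CPM per kilobase in control cells, and the groups overlapped. Without scaling to length the same sum was 64.0 ± 2.47 CPM in E4F1 shRNA cells and 51.1 ± 3.46 CPM in control cells (SD, n = 3 each), with no overlap, since the exons of CDK19 span 7492 bases and those of CDK8 3538 bases. With the longest transcript as length, the CDK19 share was 39.8% in E4F1 shRNA cells and 15.9% in control cells.

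**Figure D2:**
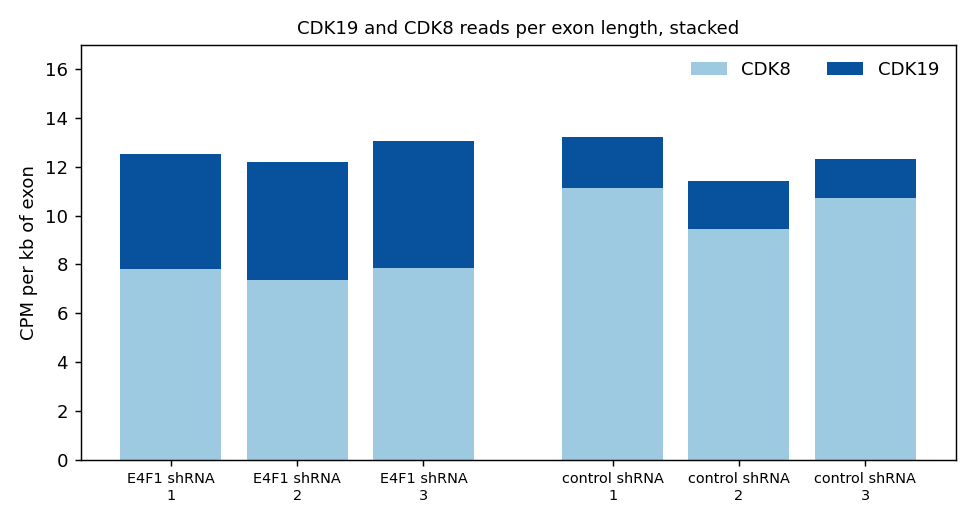
CPM per kilobase of exon for CDK8 (light blue) and CDK19 (dark blue), stacked, in each of the 3 E4F1 shRNA and 3 control shRNA libraries. The stacks reach 12.2 to 13.1 in E4F1 shRNA and 11.4 to 13.2 in control libraries, while the CDK19 part is larger in E4F1 shRNA libraries.

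A 7-base stretch, CTTATCT, stood in the 3' untranslated region (UTR) of CDK19 and of no other kinase module gene. This stretch came from a scan of the same fold changes, so its presence in CDK19 is a description and supports nothing. Of 13090 tested genes with an annotated 3' UTR, 11.8% held it in their longest one, with a median UTR length of 3380 bases against 1258 bases in genes without it. In CDK19 it stood once, in a UTR of 4557 bases, and all 3 coding transcripts with a 3' UTR held it. Of genes with a UTR within 20% of that length 25.7% held it. MED12L, MED13 and MED13L lacked it, with UTRs of 4268, 3863 and 7394 bases, as did CDK8 and CCNC, with 1157 and 1175 bases, and MED12, with 236 bases. None of 2370 mature miRNAs in the RefSeq table had a seed (bases 2 to 8) complementary to it. The hairpin sequences were not given in the labels, so the introduced shRNAs were not compared with it.

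The site of CDK19 is shown so that its surrounding bases can be compared with those in MED29, WASF1 and LGR5, which were called higher, and in MED20 and MED28, which were not called. These genes are described further on and were picked with their values known. Other genes with the stretch are not shown, among them FOS, which was called lower. Of the 40 tested protein-coding genes within 500 kb of a kinase module gene 8 held it, where 11.8% of tested genes with a 3' UTR did. Of those 8 genes 2 were called higher, as were 6 of all 40 and 14.4% of all genes. A link between the stretch and the calls was not tested. Sequences are from GENCODE 29 transcripts (GRCh38), read 5′ to 3′ on the strand of the gene, with the 7 bases in capitals.
CDK19 (chr6:110612957-110612963, minus strand): ttctttctgaaCTTATCTacctggttatg
MED29 (chr19:39399125-39399131, plus strand): ggataatctccCTTATCTaaagtcaactg
MED29 (chr19:39400207-39400213, plus strand): tagcaaaagccCTTATCTgcaaaaaattc
WASF1 (chr6:110100327-110100333, minus strand): ttttacagtggCTTATCTtttttttcccc
LGR5 (chr12:71585474-71585480, plus strand): gtgacgtatgtCTTATCTgatttgttttt
MED20 (chr6:41906139-41906145, minus strand): acatagaacctCTTATCTgggcagtcatg
MED28 (chr4:17633637-17633643, plus strand): ctacttcccctCTTATCTacagggaaata

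The hexamer TGACGT, the core of the site that E4F1 shares with ATF factors, was looked for on both strands of RefSeq promoter windows (GRCh38.p14), which run from just upstream of an annotated start to just inside the gene. Of the 3 promoters listed for CDK19 the hexamer stood in 1, on the reverse strand. It stood in no listed promoter of CDK8, CCNC, MED12, MED12L or MED13L, and MED13 was not matched. Of 15739 promoters of tested genes with a 3' UTR 10.1% held it.

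CCNC, the gene of cyclin C, the regulatory subunit that both kinases need (chromosome 6, 99542380 to 99568973, minus strand), had 109, 116 and 107 CPM in E4F1 shRNA libraries, against 111, 104 and 113 CPM in control libraries. The groups overlapped and the log2 fold change was 0.02 (SE 0.06). Its sign turned to −0.01 without E4F1 shRNA library 2 and to −0.0029 without control library 2. The ratio of CCNC to the sum of both kinases, per kilobase, was 1.53 ± 0.120 in E4F1 shRNA cells and 1.54 ± 0.0719 in control cells (SD, n = 3 each).

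MED12, the subunit that activates the kinase and is mutated in uterine leiomyomas (chromosome X, 71118556 to 71142454, plus strand), had 70.8, 70.0 and 71.0 CPM in E4F1 shRNA libraries, against 64.5, 71.0 and 70.7 CPM in control libraries. Only control library 1 lay apart, and the log2 fold change was 0.04 (SE 0.06).

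MED12L, its less studied paralogue (chromosome 3, 151085697 to 151437072, plus strand), had 10.9, 12.0 and 12.6 CPM in E4F1 shRNA libraries, against 9.90, 9.65 and 8.36 CPM in control libraries. The groups did not overlap, with a log2 fold change of 0.35 (SE 0.11). This rests on 175, 201 and 206 reads in E4F1 shRNA libraries and 148, 156 and 130 reads in control libraries. On the opposite strand it overlaps other genes, among them IGSF10 (102 to 138 reads per library), and 29% to 50% of its strand-assigned reads lay on that strand, against at most 2.07% in the other 6 genes. Its call was lost with counts that ignore strand, with DESeq2, and without E4F1 shRNA library 2 or 3 or control library 3.

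MED13, the subunit that docks the module onto core Mediator (chromosome 17, 61942605 to 62065282, minus strand), had 380, 376 and 401 CPM in E4F1 shRNA libraries, against 374, 357 and 341 CPM in control libraries. MED13L, its paralogue (chromosome 12, 115953872 to 116277719, minus strand), had 172, 170 and 174 CPM in E4F1 shRNA libraries, against 164, 169 and 160 CPM in control libraries. In both genes the lowest E4F1 shRNA library lay just above the highest control. The log2 fold changes were 0.11 (SE 0.05) for MED13 and 0.07 (SE 0.05) for MED13L, less than that of most genes in size: 33.3% of all genes had a smaller one than MED13 and 21.6% a smaller one than MED13L.

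The order of levels per kilobase changed between groups around the kinases. In E4F1 shRNA cells it ran MED13 (30.4), CCNC (19.2), MED12 (9.51), CDK8 (7.68), CDK19 (4.91), MED13L (4.61) and MED12L (0.936 CPM per kilobase). In control cells it ran MED13 (28.2), CCNC (18.9), CDK8 (10.4), MED12 (9.26), MED13L (4.39), CDK19 (1.89) and MED12L (0.737 CPM per kilobase). In control libraries CDK8, at 9.44 to 11.1, and MED12, at 8.69 to 9.57, overlapped. The order depends on the length taken. The exon union of MED13L is 37364 bases and its longest transcript 14615 bases, and with the longest transcript CCNC came first, at 44.8 CPM per kilobase in E4F1 shRNA cells and 44.1 in control cells, and MED13L stood above CDK19 in both groups.

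The 26 genes of core Mediator, to which the module binds, were all measurable, and 4 of them were called. In E4F1 shRNA cells 2 rose and 2 fell (edgeR, adjusted over all genes), a called share of 15.4% against 28.9% of all genes. Their median log2 fold change was −0.03, and that of all genes −0.01. MED29, a head subunit gene (chromosome 19, 39391303 to 39400637), rose to 51.6, 52.4 and 52.1 CPM in E4F1 shRNA libraries, against 33.4, 37.0 and 32.6 CPM in control libraries (log2 0.60, SE 0.07, edgeR adjusted p = 6.66e-06). The groups lay far apart, and the E4F1 shRNA libraries were close to each other. MED1, the middle subunit that binds nuclear receptors, rose to 199 ± 8.80 CPM in E4F1 shRNA cells, against 170.2 ± 7.47 CPM in control cells (SD, n = 3 each; edgeR adjusted p = 0.00530).

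The head subunit gene MED18 fell to 21.7 ± 0.460 CPM in E4F1 shRNA cells, against 26.04 ± 0.924 CPM in control cells (SD, n = 3 each; edgeR adjusted p = 0.0174). MED15, a tail subunit known from SREBP and SMAD signalling, fell to 73.8 ± 5.63 CPM in E4F1 shRNA cells, against 86.1 ± 4.41 CPM in control cells (SD, n = 3 each; edgeR adjusted p = 0.0160). MED14, the scaffold that joins head, middle and tail, had 121 ± 0.490 CPM in E4F1 shRNA cells and 120 ± 4.50 CPM in control cells (log2 0.01, edgeR adjusted p = 0.872). The head gene with the most reads, MED20, had a log2 fold change of −0.04 (edgeR adjusted p = 0.696). CTTATCT stood in the longest 3' UTR of 3 core genes: MED29 held it in 2 places, MED20 in 1 and MED28, whose log2 fold change was −0.14 (edgeR adjusted p = 0.0976), in 1. The calls of MED18 and MED15 were both lost without E4F1 shRNA library 1 or 2 or control library 1. With E4F1 shRNA library 1 or 2 left out 2 core genes were called, where 19.6% and 18.8% of all genes were. With the replicate number as a block 7 core genes were called, where 30.9% of all genes were.

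**Figure D3:**
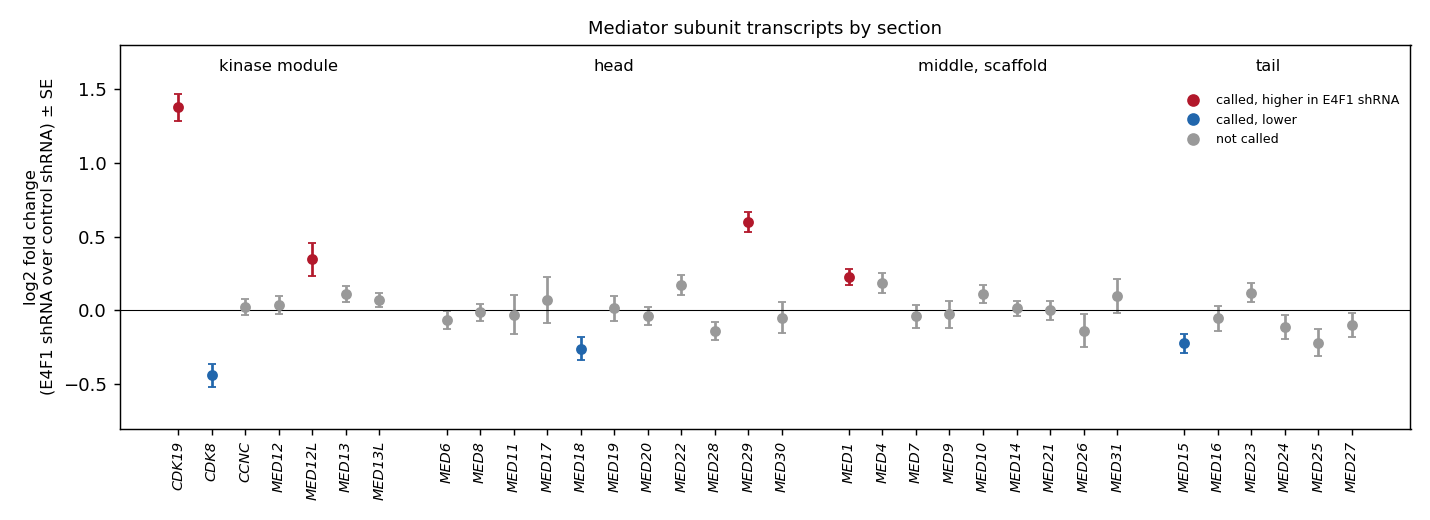
Log2 fold change (E4F1 shRNA over control shRNA) with SE for the 7 kinase module genes and the 26 core Mediator genes, by section of the complex; red and blue points passed an edgeR adjusted p of 0.05. CDK19 at 1.38, MED29 at 0.60 and CDK8 at −0.44 stand farthest from 0, and most core genes lie within 0.2 of it.

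Of 17 genes for the other transcription kinases, their cyclins and the 7SK partners of P-TEFb, 2 rose and 1 fell, a called share of 17.6% against 28.9% of all genes. CDK13, which with cyclin K phosphorylates elongating polymerase, rose by 0.24 on the log2 scale (SE 0.05, edgeR adjusted p = 0.00254), and its partner paralogue CDK12 had 0.02 (edgeR adjusted p = 0.809). Within the CDK-activating kinase of TFIIH, the kinase gene CDK7 fell to 58.0 ± 2.22 CPM in E4F1 shRNA cells, against 69.6 ± 5.78 CPM in control cells (SD, n = 3 each; edgeR adjusted p = 0.00786). The gene of its assembly factor, MNAT1, rose by 0.21 (edgeR adjusted p = 0.0199), a call that was lost without E4F1 shRNA library 1 or 2. CDK11A had the largest change of those not called, −0.19, at 0.595 to 1.03 CPM, and its reads may be split with its near-identical copy CDK11B. No gene of this list held CTTATCT.

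Of 7 genes for turnover and partners of the module 6 were tested and 1 fell, 16.7% against 28.9% of all genes. CARM1, the methyltransferase that modifies MED12, fell to 72.2 ± 2.28 CPM in E4F1 shRNA cells, against 87.1 ± 7.60 CPM in control cells (SD, n = 3 each; edgeR adjusted p = 0.00511). FBXW7, the ubiquitin ligase subunit that recognises MED13 and MED13L, had a log2 fold change of −0.07 (edgeR adjusted p = 0.476), and CUL1, its cullin, 0.12 (0.182). CDK3, another partner of cyclin C, was at 0 to 0.366 CPM and was not tested.

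Of 11 genes for transcription factors that the module's kinases are known to phosphorylate, 2 rose and 2 fell, 36.4% against 28.9% of all genes. NOTCH1, whose intracellular domain is marked for destruction by cyclin C and CDK8, rose by 0.26 (SE 0.07, edgeR adjusted p = 0.00954), and STAT5B rose by 0.21 (edgeR adjusted p = 0.0379), a call that DESeq2 did not make and that was lost without any 1 of the E4F1 shRNA libraries or control library 3. The NOTCH1 call was lost without E4F1 shRNA library 3. STAT3 fell by 0.20 (edgeR adjusted p = 0.00897) and SMAD3, the TGF-beta effector, fell by 0.18 (edgeR adjusted p = 0.0148). Both of these calls were lost without E4F1 shRNA library 1 or control library 1, and that of SMAD3 also without E4F1 shRNA library 2. E2F1 had 0.15 (edgeR adjusted p = 0.304). SMAD2, with 3 copies of CTTATCT, had 0.14 (edgeR adjusted p = 0.104). With E4F1 shRNA library 1 left out 1 gene was called in place of 4, where 19.6% of all genes were called. With E4F1 shRNA library 2 or control library 1 left out 2 were, where 18.8% and 21.8% of all genes were called.

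Targets of 4 pathways in which the module is known to act were also followed, on lists chosen with earlier results of these data known. Of 10 serum response genes 9 were tested, 4 fell and 1 rose, 55.6% against 28.9%, with a median log2 fold change of −0.42. JUNB, an AP-1 subunit gene, fell to 14.9, 16.6 and 18.9 CPM in E4F1 shRNA libraries, against 25.1, 23.7 and 32.3 CPM in control libraries (log2 −0.69, edgeR adjusted p = 0.000279). The phosphatase gene DUSP1 fell by 0.55 (edgeR adjusted p = 6.12e-05) and the zinc finger gene EGR1, whose elongation CDK8 is known to favour, fell by 0.42 (edgeR adjusted p = 0.000608). FOS fell by 0.46 (edgeR adjusted p = 0.0146), a call lost without E4F1 shRNA library 1 or 2 or control library 1, and is the gene of this list with CTTATCT in its longest 3' UTR. IER3 rose by 0.16 (edgeR adjusted p = 0.0423), a call that DESeq2 did not make and that was lost without E4F1 shRNA library 1 or 3 or control library 1 or 3. EGR2, at 0.437 to 1.18 CPM, had −0.64 (edgeR adjusted p = 0.167). With E4F1 shRNA library 1 or control library 1 left out, 3 genes were called in place of 5, where 19.6% and 21.8% of all genes were.

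Of 13 Wnt target genes 9 were tested, 5 rose and 1 fell, 66.7% against 28.9%, with a median of 0.17. LGR5, the R-spondin receptor gene of epithelial stem cells, rose to 5.68, 5.06 and 5.98 CPM in E4F1 shRNA libraries, against 1.14, 2.10 and 0.962 CPM in control libraries (log2 1.97, SE 0.23, edgeR adjusted p = 7.68e-06). Control library 2 was the highest control, and the groups were well apart. RNF43, a ubiquitin ligase that removes Wnt receptors, rose to 5.37 ± 0.562 CPM in E4F1 shRNA cells, against 2.86 ± 0.490 CPM in control cells (SD, n = 3 each; edgeR adjusted p = 0.000843). CCND1, the cyclin D1 gene, rose by 0.17 (edgeR adjusted p = 0.0137), NKD1, an inhibitor of the pathway, by 0.48 (0.0194) and the transcription factor gene LEF1 by 0.31 (0.0338). DESeq2 did not call LEF1, whose call was also lost without E4F1 shRNA library 1 or 2 or control library 1 or 3. The NKD1 call was lost without E4F1 shRNA library 1 or 3 or control library 3, and the CCND1 call without E4F1 shRNA library 2. MYC fell by 0.40 (edgeR adjusted p = 0.000199), while NOTUM had −0.18 (0.644) and AXIN2 0.02 (0.927), with overlapping groups for NOTUM and AXIN2. CTTATCT stood in the longest 3' UTR of LGR5, NKD1 and ZNRF3, and ZNRF3 had 0.17 (edgeR adjusted p = 0.172).

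Of 12 TGF-beta and BMP target genes, all tested, 6 fell and 2 rose, 66.7% against 28.9%, with a median of −0.20. TGFBI, a matrix protein gene, fell to 59.1, 60.1 and 55.7 CPM in E4F1 shRNA libraries, against 89.1, 80.7 and 98.1 CPM in control libraries (log2 −0.61, edgeR adjusted p = 6.82e-06). ID1 and ID3, BMP-induced inhibitors of basic helix-loop-helix factors, fell by 0.41 (edgeR adjusted p = 1.83e-05) and 0.44 (0.000582). BAMBI, a decoy receptor gene, rose to 9.17 ± 0.509 CPM in E4F1 shRNA cells, against 5.81 ± 0.699 CPM in control cells (SD, n = 3 each; edgeR adjusted p = 0.00114), and is the called gene of this list with CTTATCT. SMAD7, the inhibitory SMAD gene, had −0.17 (edgeR adjusted p = 0.167).

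Of 8 Notch target genes 4 were tested and 3 were listed at 0 in every library; 1 tested gene rose and 1 fell, 50% against 28.9% of all genes. NOTCH3 fell to 32.5 ± 1.56 CPM in E4F1 shRNA cells, against 42.6 ± 1.88 CPM in control cells (SD, n = 3 each; edgeR adjusted p = 0.000518). HES1 rose by 0.25 (edgeR adjusted p = 0.0375), a call that DESeq2 did not make and that was lost on leaving out any library but control library 2. HEY1 had −0.29 (edgeR adjusted p = 0.142).

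**Figure D4:**
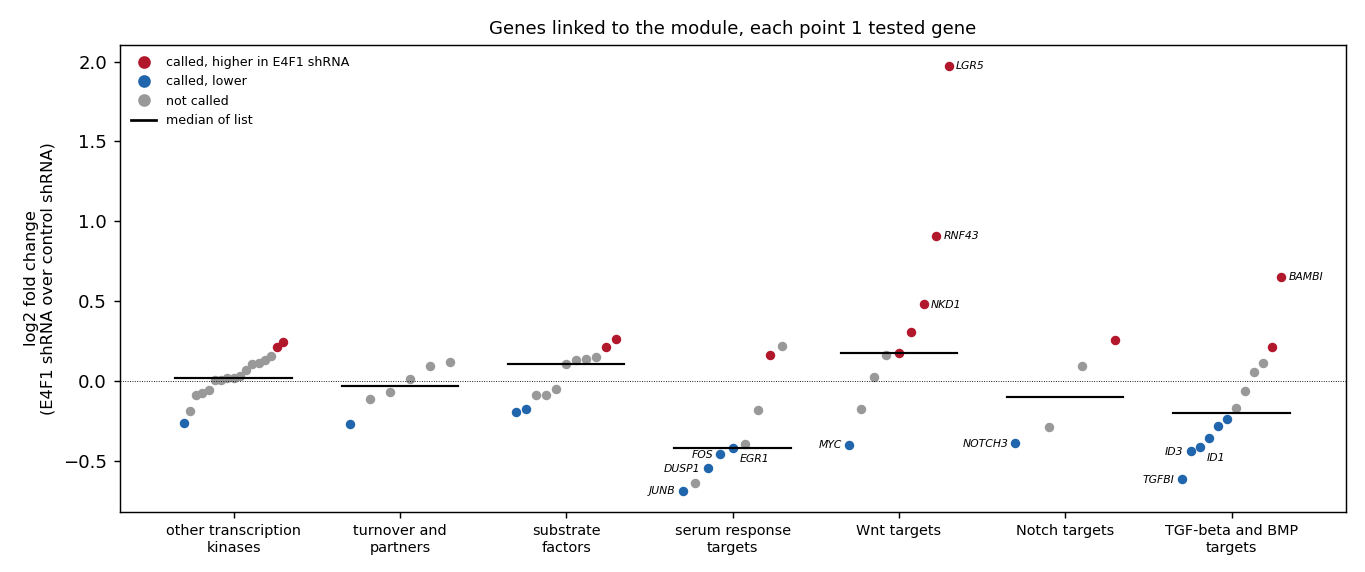
Log2 fold change (E4F1 shRNA over control shRNA) of every tested gene in 7 lists linked to the module; red and blue points passed an edgeR adjusted p of 0.05, the black line is the median of each list, and called genes beyond 0.38 in size are named. LGR5 stands highest at 1.97, and the medians of the serum response and TGF-beta lists lie at −0.42 and −0.20.

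The genes beside the kinase module genes were followed as well. Of 64 protein-coding genes within 500 kb of a member 40 were tested, 6 rose and 1 fell, 17.5% against 28.9% of all genes. The genes nearest to CDK19 among those tested, AMD1 and GTF3C6, had log2 fold changes of 0.03 and 0.06 (edgeR adjusted p = 0.750 and 0.544), and those nearest to CDK8, RNF6 and WASF3, had −0.10 and −0.11 (0.293 and 0.297). BRIP1, a helicase gene of crosslink repair beside MED13, rose by 0.42 (edgeR adjusted p = 0.000364), while INTS2, which lies nearer to MED13, had −0.06 (0.475). WASF1, an actin regulator gene 429974 bases from CDK19 that was singled out after its value was seen, rose to 30.9 ± 0.934 CPM in E4F1 shRNA cells, against 20.0 ± 1.32 CPM in control cells (SD, n = 3 each; log2 0.63, edgeR adjusted p = 1.87e-05). With E4F1 shRNA library 1 or 2 or control library 3 left out 4 were called in place of 7, where 18.8% to 19.7% of all genes were called. With control library 2 left out 13 were, where 33.4% of all genes were called. The gene that fell, SERP1, an endoplasmic reticulum stress gene 482469 bases from MED12L, had 110 ± 5.58 CPM in E4F1 shRNA cells and 134 ± 5.005 CPM in control cells (SD, n = 3 each; log2 −0.28, edgeR adjusted p = 0.00132).

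The transcripts whose profile over the 6 libraries was most like that of CDK19 were DDIT4, CDS1, IDH1, USP14 and MFSD6, among 10075 protein-coding genes with an average log2 CPM of at least 3. Likeness was the root mean square distance between log2 CPM profiles, each centred on its own mean. It was 0.059 for DDIT4, an mTORC1 inhibitor, 0.089 for CDS1, a phospholipid enzyme, 0.11 for IDH1, the cytosolic isocitrate dehydrogenase, 0.14 for USP14, a proteasome deubiquitinase, and 0.15 for MFSD6. CTTATCT stood in the longest 3' UTR of IDH1 and USP14, and not in that of DDIT4, CDS1 or MFSD6. The next 3 in the order, TMEM38B, ELOVL4 and PCK2, at distances of 0.15 to 0.17, all held it. All of these genes were picked for a profile like that of CDK19, and the stretch came from a scan of the same fold changes. Its presence in them is a description and supports nothing. Of tested genes with an annotated 3' UTR 11.8% held it in their longest one.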

How the data were processed

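Each library has a deposited table of raw counts by gene, which the authors made with bcl2fastq 2.20 and STAR 2.5.1b on GRCh38, per the submitters' processing notes. The sources used here do not name the annotation release. Reverse-strand counts were used, since forward-strand reads in genes numbered 885046 to 977742. Summary lines for reads not assigned to a gene (27.1% to 31.7% of a table) were left out. Symbols, exons and 3' UTRs came from GENCODE 29, to which 57881 of 58219 identifiers matched without version.

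Counts were tested with edgeR 4.0.16 (filterByExpr, TMM, quasi-likelihood F-test, group as the only term, two-sided). P-values were adjusted by the Benjamini-Hochberg method over 15765 genes, with a threshold of 0.05. CPM values are TMM-scaled. With 3 libraries a group, an exact permutation test of 1 value cannot go below 0.1. No library of a group repeated another.

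The members and lists were chosen with earlier results of these data known. Named genes were the members, E4F1, core genes past the threshold and those with the most reads, the called list genes with the smallest adjusted p (up to 4) and the largest uncalled change per list, the nearest neighbours and the 5 profiles nearest to CDK19; others, among them IER3, LEF1, SERP1 and those with CTTATCT, are named after their values were seen. A few genes under this rule are left unreported. The settings varied were DESeq2 1.42.0, limma-voom 3.58.1, other scalings and filters, the replicate number as a block, each library left out and counts ignoring strand. Steps were tested on simulated data.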

Additional observations from a re-analysis of the deposited data

How the results depend on the processing

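The CDK19, CDK8, MED12, MED12L, MED13 and MED13L log2 fold changes kept their sign under all 14 alternatives, a description of values that the choice of genes used. Leaving out each library in turn gave 1.27 to 1.46 for CDK19, −0.50 to −0.38 for CDK8, 0.0067 to 0.071 for MED12, 0.08 to 0.16 for MED13, 0.05 to 0.10 for MED13L, 0.27 to 0.41 for MED12L and −0.0094 to 0.056 for CCNC, whose sign turned in 2 of these fits (−0.0094 without E4F1 shRNA library 2 and −0.0029 without control library 2). The MED12L call was also lost with DESeq2 (0.35) and with counts ignoring strand (0.32); the cause was not tested. The genes called in all numbered 4550 (28.9% of those tested), and 3031 to 5370 (18.8% to 33.4%) on leaving out a library. Called counts then ran from 2 to 6 for core Mediator, 2 to 4 for other transcription kinases, 1 to 6 for substrate factors, 3 to 5 for serum response, 4 to 6 for Wnt, 1 to 2 for Notch, 6 to 8 for TGF-beta and 4 to 13 for neighbour genes. DESeq2 called 1 Notch gene. Same-numbered pools correlated at 0.00704, 0.0471 and 0.0477 in their deviations from the group means, and not every pool correlated best with its own number, so the numbers were not taken as pairs. With the replicate number as a block 4865 genes were called in all and 7 of core Mediator (4 higher, 3 lower), and the log2 fold change was 1.38 for CDK19. MED12L, LGR5, RNF43, NKD1 and other genes of low CPM rest on few reads per library.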
